A study of Macaca mulatta with 4 samples.

Results

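A set of 10 genes of lipid carriage and uptake were followed in rhesus macaque (Macaca mulatta) morulae. They are 4 apolipoprotein genes (APOE, APOA1, APOB and APOC1), 3 fatty acid-binding protein genes (FABP3, FABP4 and FABP5), the endocytic receptor genes LRP2 and CUBN, and the adaptor gene DAB2. APOE, FABP4 and LRP2 were put on it because of their change between the groups compared here, so their values are a description and carry no test. The other 7 were added as relatives or partners. Of the 10, 8 were matched by Ensembl identifier, each to a single row among the 21314 genes of the count table, and all 8 passed the filter on low counts. FABP3 and FABP5 had no matching identifier and were not analysed here.

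Gynogenetic (GG) embryos carry a nuclear genome of maternal origin alone, and androgenetic (AG) embryos one of paternal origin alone. RNA of GG morulae was compared with RNA of AG morulae, with 2 libraries in each group and no biparental group among these libraries. Neither parental age nor strain is given in the sources used here, and it is unclear how many embryos made up a library or whether replicates came from separate animals. The p-values therefore measure the spread between these libraries, which may be technical.

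Lipids do not dissolve in water and travel between cells on particles coated with apolipoproteins. LRP2 (megalin) and CUBN (cubilin) are large receptors at the apical surface of absorptive epithelia such as the yolk sac and kidney tubule, where they bind many ligands, apolipoproteins included. DAB2 links the tail of LRP2 to the clathrin coat. Inside the cell, fatty acid-binding proteins hold fatty acids in a small barrel-shaped pocket.

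Total estimated counts were 21335844 and 29733897 in GG replicates 1 and 2 and 14129529 and 19108657 in AG replicates 1 and 2. A single count was worth 0.0341 to 0.0475 CPM in GG and 0.0508 to 0.0712 CPM in AG, where CPM are counts scaled to 1000000 of the normalised library total. POU5F1, a pluripotency factor expected in cells of a morula and chosen after its values were seen, was read at 465 and 479 CPM in GG and 181 and 389 CPM in AG. All 7 matched morula and pluripotency markers of the 14 listed had counts. TFCP2L1 and DPPA2 were called higher in GG, DPPA4 and KLF17 were called lower in GG, and 3 were not called. That was 57.1% called, against 12.9% of all genes tested. TFCP2L1 had 15.2 and 16.8 CPM in GG, against 1.14 and 1.17 CPM in AG. DPPA2 had 488 and 820.4 CPM in GG, against 100.7 and 28.4 CPM in AG. DPPA4 had 15.8 and 12.2 CPM in GG, against 62.8 and 47.9 CPM in AG, and KLF17 had 2.37 and 0.614 CPM in GG, against 34.2 and 21.4 CPM in AG.

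APOE, FABP4 and LRP2 stood at 70.8 CPM or above in both GG libraries and at 3.15 CPM or below in both AG libraries, whereas CUBN, DAB2 and APOB had their higher values in AG. The 4 apolipoprotein genes did not all lie on the same side, and neither did the receptors and their adaptor. Among the 5 measured members that were not picked for their change, APOA1 and APOC1 passed the threshold as higher in GG with edgeR. In that test 0 passed as lower in GG and 3 were not called. At an unadjusted p under 0.05 there was 1 lower in GG, DAB2. DESeq2 called DAB2, as did edgeR with the replicate number as a block and with no filter on low counts. The threshold was an adjusted p of 0.05 in edgeR's quasi-likelihood test, and over all 13227 genes tested 12.9% were called, 6.34% as higher and 6.58% as lower in GG. The median log2 fold change of those 5 members was -1.23, against 0.04 over all genes tested. In each of the 8 measured members the GG and AG libraries did not overlap in CPM, which was also true of 64.1% of all genes tested. Without GG replicate 1 or GG replicate 2, when 119 and 84 of all genes were called, each called list gene or neighbour named here lost its call, other than S100P and CLDN4, and ELF3 without GG replicate 1.

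**Figure D1:**
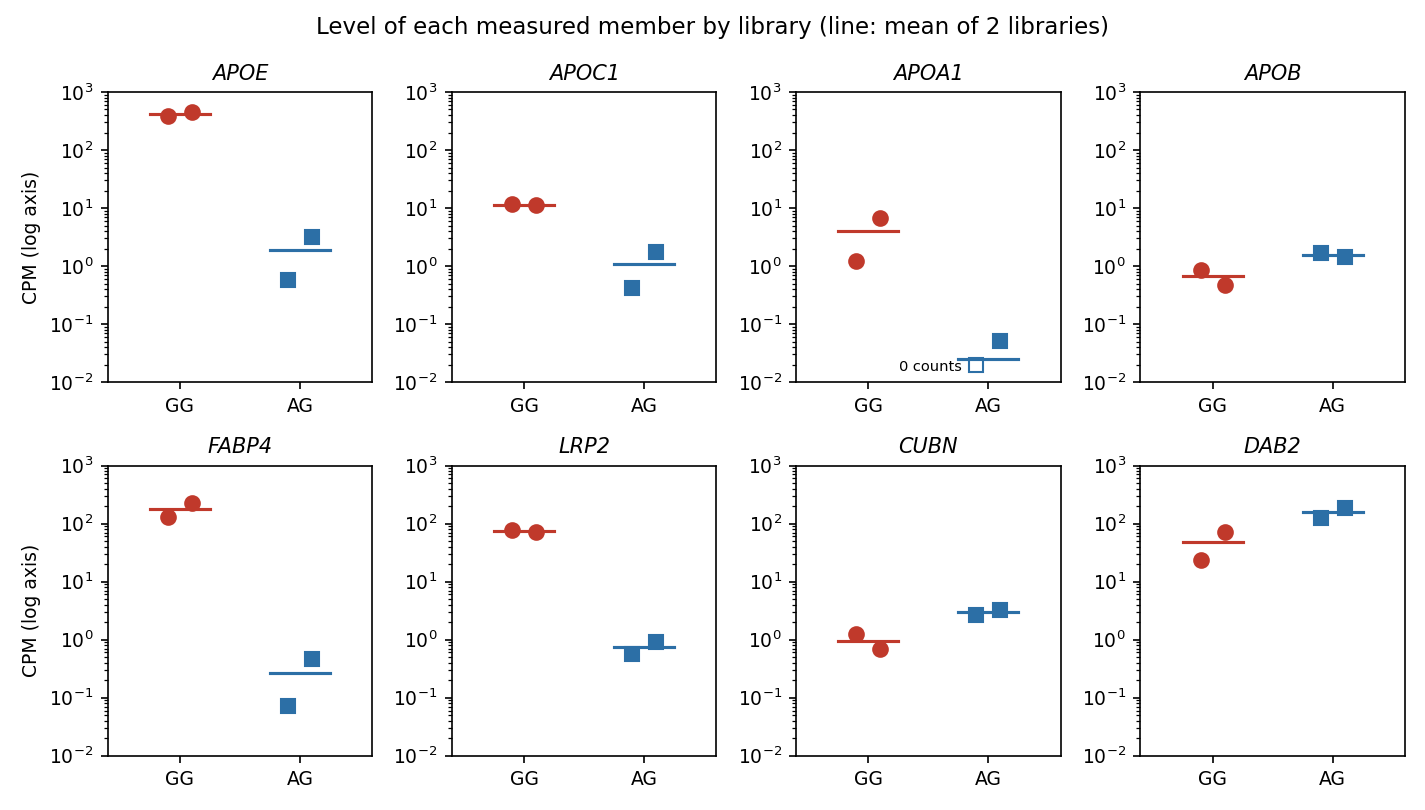
Level of each of the 8 measured members in CPM on a log axis, with GG libraries (circles) left of AG libraries (squares), lines at the mean of 2 libraries and an open symbol for 0 counts. APOE, APOC1, APOA1, FABP4 and LRP2 lay higher in GG, and APOB, CUBN and DAB2 lay lower in GG.

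APOE (ENSMMUG00000014305) encodes a receptor ligand that clears lipoprotein remnants. It had 8042 and 13211 counts in GG replicates 1 and 2, against 8 and 62 counts in AG replicates 1 and 2. Scaled, that was 382 and 450.5 CPM in GG and 0.570 and 3.15 CPM in AG. The GG libraries differed little from each other, while the AG libraries differed by several-fold at a level of few reads. The fitted log2 fold change was 7.76 ± 0.83 (SE). Without AG replicate 2, the higher AG library, it was 9.48, and without AG replicate 1 it was 7.03. Within a library, APOE was at or above 96.8% and 97.5% of genes with a count in GG, and at or above 19.7% and 42.6% in AG. Those ranks need no scaling between libraries.

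APOC1 (ENSMMUG00000028749), which encodes a small apolipoprotein that slows lipoprotein uptake, is the next gene after APOE in the gene order. Old World monkeys carry a further, closely related APOC1 copy, so the division of reads between copies is uncertain. APOC1 had 11.6 and 11.1 CPM in GG, against 0.427 and 1.73 CPM in AG. The GG libraries were nearly equal, and the AG libraries rested on 6 and 34 counts. Its log2 fold change was 3.36 ± 0.76 (SE; edgeR adjusted p = 0.0457), higher in both GG libraries than in either AG library. The call ended without GG replicate 1 or GG replicate 2 (edgeR adjusted p = 0.197 and 0.200), where the range over its alternatives began at 0.000136 with DESeq2. Leaving out AG replicate 2 moved its log2 fold change to 4.69, and leaving out AG replicate 1 moved it to 2.70.

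Because APOE was picked for its change, its ratio to APOC1 is a description. The ratio of APOE to APOC1 counts was 33.0 and 40.6 in GG replicates 1 and 2, against 1.33 and 1.82 in AG replicates 1 and 2. Transcript length enters this ratio equally in every library, so it can be read across libraries but not as a difference in level between the genes.

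APOA1 (ENSMMUG00000044545), the main protein of high-density lipoprotein, was read at low level. It had 26 and 198 counts in GG, against 0 and 1 in AG. In CPM, GG replicates 1 and 2 stood at 1.23 and 6.75, with a mean of 3.99 ± 3.90 (SD, n = 2), and AG replicates 1 and 2 at 0 and 0.0508. The ratio of GG to AG, from the summed counts over the summed library totals, was 149.9 (exact 95% interval 26.6 to 5949, counting error alone). APOA1 was called higher in GG (edgeR adjusted p = 0.0407), and both GG libraries lay above both AG libraries. The call ended without AG replicate 1, GG replicate 1 or GG replicate 2 (edgeR adjusted p = 0.0664, 0.0839 and 0.310), and DESeq2 gave the smallest value of its alternatives, 0.00103. Its fitted log2 fold change of 6.85 ± 1.48 (SE) depends on the small constant added to counts and was 5.12 without GG replicate 2 and 9.44 without AG replicate 2.

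APOB (ENSMMUG00000007692), the structural protein of very-low-density and low-density lipoprotein, was near the detection limit in all 4 libraries. There were 18 and 14 counts in GG and 24 and 28 in AG, or 0.855 and 0.477 CPM in GG and 1.71 and 1.42 CPM in AG. The GG values were lower in each library, but the difference was not called (log2 fold change -1.23 ± 0.75 SE, edgeR adjusted p = 0.315; 0.302 to 0.785 over its alternatives). MTTP, the transfer protein that loads lipid onto APOB, was chosen after its values were seen and had 0 and 6 counts in GG, against 2 and 0 in AG.

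Of 20 other apolipoprotein and apolipoprotein-like genes listed, 13 matched, 7 were tested and 0 were called (edgeR; 2 had an unadjusted p under 0.05, and DESeq2 called 2), with a median log2 fold change of 0.58. The most abundant were APOO and APOOL, whose proteins belong to the mitochondrial contact site complex rather than to lipoproteins. APOO averaged 142 ± 2.63 CPM in GG and 46.5 ± 30.2 CPM in AG (SD, n = 2; edgeR adjusted p = 0.0881), and APOOL 103 ± 0.773 CPM in GG and 43.4 ± 11.8 CPM in AG (edgeR adjusted p = 0.0549). Members that travel on lipoproteins were scarce. APOA2, APOA4, APOC4, APOH and APOM, named after their values were seen, each averaged under 4 CPM in GG and in AG.

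FABP4 (ENSMMUG00000020987) encodes the fatty acid-binding protein best known from fat cells and macrophages. It had 2727 and 6496 counts in GG replicates 1 and 2, against 1 and 9 in AG replicates 1 and 2. In CPM that was 129.5 and 221 in GG and 0.0712 and 0.457 in AG, and every GG value was over 100 CPM while every AG value was under 1 CPM. The mean was 664-fold higher in GG, and the fitted log2 fold change was 9.23 ± 0.77 (SE), or 11.14 without AG replicate 2 and 8.56 without AG replicate 1. With 10 counts in AG in all, the AG level is known only loosely.

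The share of FABP4 within its family follows from the change for which it was picked and is given as a description. Over FABP1, FABP4, FABP6, FABP9, FABP12 and PMP2, the relatives with a row in the table, FABP4 held 98.7% and 99.4% of counts in GG replicates 1 and 2, against 1.35% and 6.47% in AG replicates 1 and 2. FABP6, the ileal bile acid-binding relative, held 0% and 0.0306% in GG, against 91.6% and 91.3% in AG. These shares leave out FABP3 and FABP5, and in AG they rest on few reads. FABP6 had 0 and 2 counts in GG, against 68 and 127 in AG, a ratio of AG to GG of 145.7 (exact 95% interval 39.8 to 1211). It was called lower in GG (edgeR adjusted p = 0.0214), with both AG libraries above both GG libraries. Its 2 GG counts were both in GG replicate 2.

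Of 17 other intracellular lipid-binding genes listed, 13 matched and 8 were tested; edgeR called 0 higher in GG, 2 lower in GG and 6 in neither direction (25% called, against 12.9% of all genes; 4 had an unadjusted p under 0.05), with a median log2 fold change of 0.46. DESeq2 called 1 higher and 2 lower. The second called gene was RBP7, a retinol-binding relative of FABP4, at 40.2 and 22.0 CPM in GG and 691 and 192 CPM in AG (log2 fold change -3.83 ± 0.70 SE, edgeR adjusted p = 0.0302). It was -2.64 without AG replicate 1 and -4.50 without AG replicate 2. FABP6 and RBP7 were thus read mainly in AG, while FABP9 and FABP12, neighbours of FABP4 described below, had their higher values in GG.

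**Figure D2:**
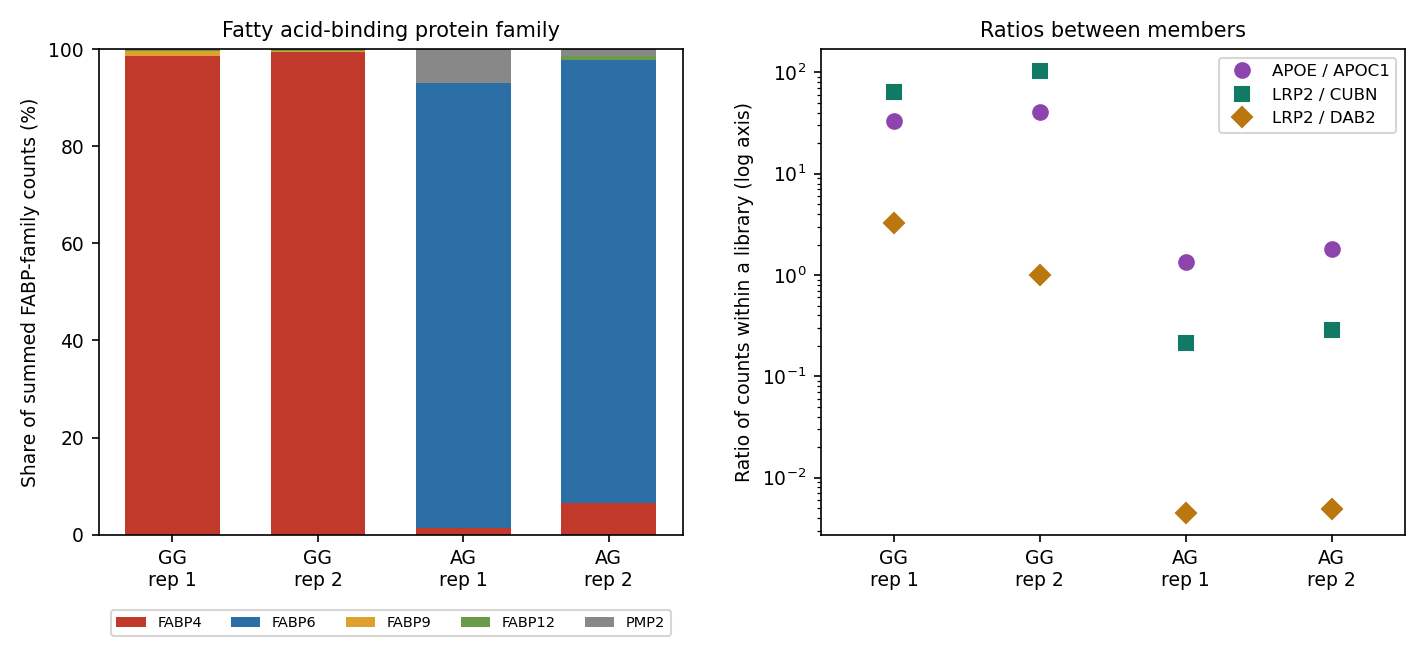
Left, share of the summed fatty acid-binding family counts held by each gene in each library, in percent; right, ratios of counts between members within each library, on a log axis. FABP4 held 98.7% and 99.4% in GG and FABP6 held 91.6% and 91.3% in AG, and all 3 ratios (APOE to APOC1, LRP2 to CUBN, LRP2 to DAB2) lay higher in GG.

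LRP2 (ENSMMUG00000017143) encodes megalin, a very large lipoprotein receptor. It had 1638 and 2075 counts in GG, against 8 and 18 in AG, or 77.8 and 70.8 CPM in GG and 0.570 and 0.914 CPM in AG. Replicates lay close together in both groups. Its mean was 100.1-fold higher in GG, with a fitted log2 fold change of 6.61 ± 0.44 (SE) that ranged from 6.33 to 6.99 when a single library was left out.

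CUBN (ENSMMUG00000016069), whose product lacks a membrane anchor of its own and is internalised with AMN and LRP2, was read at a low level, with its lower values in GG. It had 26 and 20 counts in GG, against 38 and 63 in AG, or 1.23 and 0.682 CPM in GG and 2.71 and 3.20 CPM in AG. The groups did not overlap, but the difference was not called (log2 fold change -1.63 ± 0.68 SE, edgeR adjusted p = 0.169; 0.160 to 0.604 over its alternatives). AMN (amnionless), which anchors cubilin, was chosen after its values were seen and had 0.522 and 0.750 CPM in GG, against 1.35 and 1.73 CPM in AG (edgeR adjusted p = 0.291).

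DAB2 (ENSMMUG00000019879), a cargo adaptor also known from primitive endoderm and trophoblast, was well covered in every library. It had 505 and 2067 counts in GG, against 1773 and 3679 in AG. In CPM this was 24.0 and 70.5 in GG and 126 and 187 in AG, so both GG values were lower than either AG value while the GG replicates differed about as much as the groups. The log2 fold change was -1.73 ± 0.56 (SE) and was not called (edgeR adjusted p = 0.0960). DAB2 passed as lower in GG with DESeq2 (adjusted p = 0.0113), with the replicate number as a block (edgeR adjusted p = 0.0339) and with no filter on low counts (edgeR adjusted p = 0.0270), and the highest value over its alternatives was 0.345, without GG replicate 1. Leaving out GG replicate 2 moved its log2 fold change to -2.73, and leaving out GG replicate 1 moved it to -1.15.

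Ratios with LRP2, which was picked for its change, are likewise a description. The ratio of LRP2 to CUBN counts was 63.7 and 102.6 in GG, against 0.212 and 0.284 in AG. The ratio of LRP2 to DAB2 counts was 3.24 and 1.004 in GG, against 0.00451 and 0.00489 in AG. The ratio of DAB2 to CUBN, neither of them picked, was 19.6 and 102.2 in GG and 46.9 and 58.1 in AG, where the groups overlapped.

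Among other lipoprotein and sorting receptors, 16 of 16 matched, 10 were tested, and edgeR called SORT1 alone (10% called, against 12.9% of all genes; 1 higher and 0 lower in GG, 3 at an unadjusted p under 0.05; median log2 fold change 0.03). DESeq2 called 2 higher and 1 lower. SORT1 encodes sortilin, a receptor that carries lipoproteins and other cargo between the Golgi and endosomes. It had 19.4 and 25.3 CPM in GG, against 1.28 and 3.96 CPM in AG (log2 fold change 3.07 ± 0.64 SE, edgeR adjusted p = 0.0385), and its log2 fold change was 4.10 without AG replicate 2 and 2.49 without AG replicate 1. VLDLR, a receptor for APOE-bearing particles, was named after its values were seen. It had 0.380 and 0.170 CPM in GG, against 0.641 and 5.13 CPM in AG, and was not called (edgeR adjusted p = 0.118).

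Partners of megalin and cubilin and parts of the clathrin machinery moved both ways. Of 31 listed, 29 matched and 27 were tested. By edgeR, 3 were called higher in GG, 2 were called lower in GG and 22 were not called (18.5% called, against 12.9% of all genes). The median log2 fold change was 0.54. At an unadjusted p under 0.05 there were 10, and DESeq2 called 6 higher and 4 lower. OCRL, the inositol phosphatase lost in Lowe syndrome, had 11.6 and 6.55 CPM in GG, against 0.712 and 1.12 CPM in AG (edgeR adjusted p = 0.0333). CLCN5, the endosomal chloride-proton exchanger lost in Dent disease, had 18.9 and 24.9 CPM in GG, against 5.13 and 5.03 CPM in AG (edgeR adjusted p = 0.0325). Loss of either gene in people impairs protein uptake by the kidney tubule, which runs through megalin.

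GIPC1, a scaffold that binds the tail of LRP2, was lower in GG, at 1.38 and 2.25 CPM against 12.5 and 13.8 CPM in AG (edgeR adjusted p = 0.0297). The subunits of the AP2 clathrin adaptor differed from one another. AP2B1 was called higher in GG, at 69.9 and 80.5 CPM against 28.1 and 32.8 CPM in AG (edgeR adjusted p = 0.0454). AP2S1, named after its values were seen, was called lower in GG, at 92.6 and 84.7 CPM against 184 and 181 CPM in AG (edgeR adjusted p = 0.0478). With the replicate number as a block neither subunit was called, and with upper-quartile normalization AP2S1 was not. LRPAP1, the chaperone that keeps LRP2 and related receptors from binding ligand too early, was chosen after its values were seen and averaged 150.2 ± 54.1 CPM in GG and 65.3 ± 23.9 CPM in AG (SD, n = 2; edgeR adjusted p = 0.106).

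**Figure D3:**
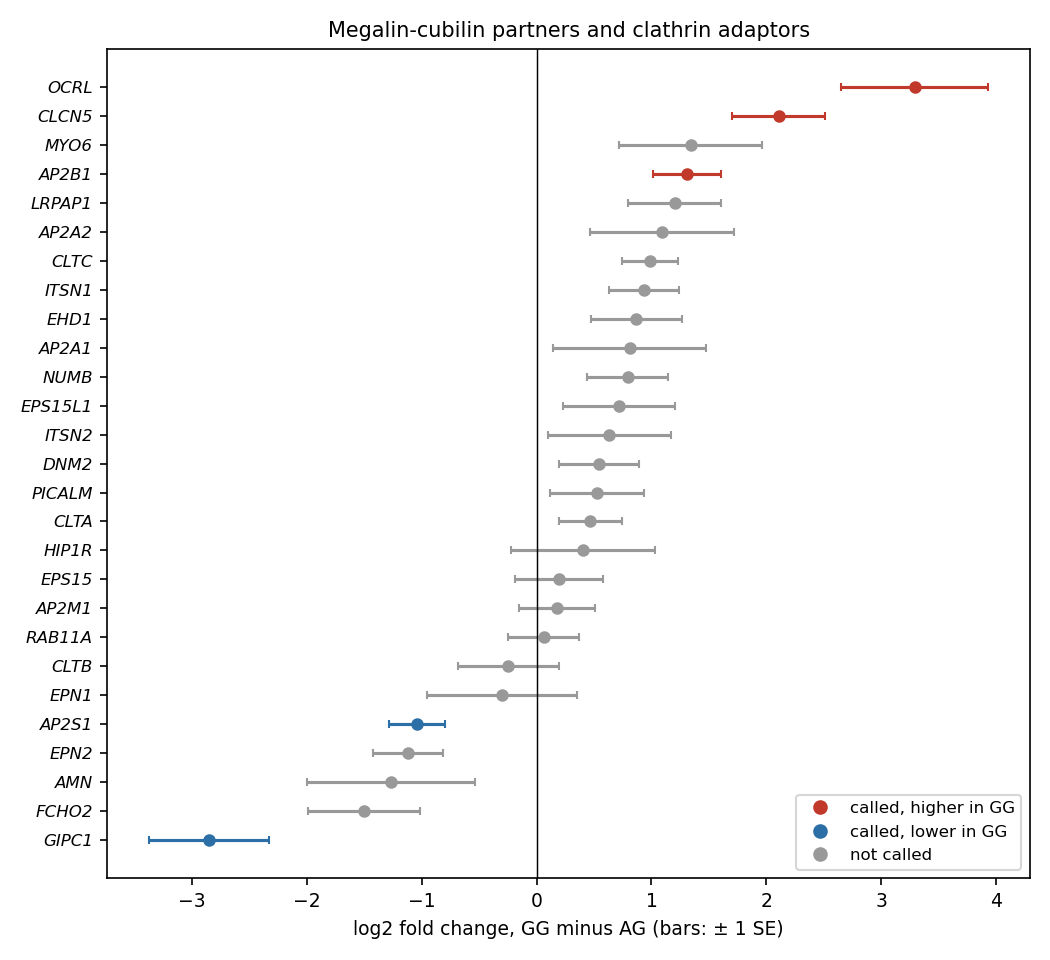
Log2 fold change, GG minus AG, with its standard error for the 27 tested partners of megalin and cubilin and clathrin adaptor genes; red marks genes called higher in GG, blue genes called lower in GG and grey genes not called. OCRL, CLCN5 and AP2B1 were called higher, GIPC1 and AP2S1 were called lower, and 22 genes were not called.

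Neighbouring genes were read to see whether the members' differences extended along the chromosome. Gene order came from assembly T2T-MMU8v2.0, whereas the counts were made on another build, and no positions are given. Over the 28 nearest protein-coding genes with a count that were not members, up to 2 on each side, 19 were tested and 3 were called (15.8%, against 12.9% of all genes), 2 as higher and 1 as lower in GG. Around APOE and APOC1, the flanking genes TOMM40, NECTIN2, APOC4 and CLPTM1 had log2 fold changes of 0.16, 0.22, -0.05 and 0.45, none of them called. TOMM40, a mitochondrial import channel next to APOE, had 165 and 225 CPM in GG and 110 and 240 CPM in AG, and the groups overlapped.

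FABP4 lies among relatives. FABP9 had 28 and 15 counts in GG, against 0 and 0 in AG, at least 9.59-fold higher in GG against a floor of 3 counts over the AG group, and was not called (edgeR adjusted p = 0.0580). FABP12 had 7 and 13 counts in GG, against 0 and 1 in AG, and was too low to test. PMP2 had 2 and 11 counts in GG, against 5 and 2 in AG. Beyond them, IMPA1, an inositol phosphatase gene, had 8.93 and 12.9 CPM in GG, against 16.2 and 14.3 CPM in AG, and was not called (edgeR adjusted p = 0.459).

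After LRP2, and past 1 skipped gene, came KLHL41, which was not called, with a log2 fold change of -0.21. FASTKD1, beyond KLHL41, was called higher in GG (log2 fold change 2.19 ± 0.44 SE, edgeR adjusted p = 0.0357). FASTKD1 had 364 and 324 CPM in GG, against 105.5 and 45.8 CPM in AG. Its log2 fold change was 2.90 without AG replicate 1 and 1.68 without AG replicate 2. Before LRP2, DHRS9 (3 and 0 counts in GG, 1 and 0 in AG) and ABCB11 (10 and 11 in GG, 3 and 6 in AG) were too low to test. Near DAB2 the called genes ran in opposite directions. FYB1, an adaptor of immune cells, had 8.50 and 5.80 CPM in GG, against 0.214 and 0.152 CPM in AG (edgeR adjusted p = 0.0176). PRKAA1, a catalytic subunit of the energy sensor AMPK, had 637 and 961 counts in GG, against 1404 and 1616 counts in the shallower AG libraries (edgeR adjusted p = 0.0324).

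**Figure D4:**
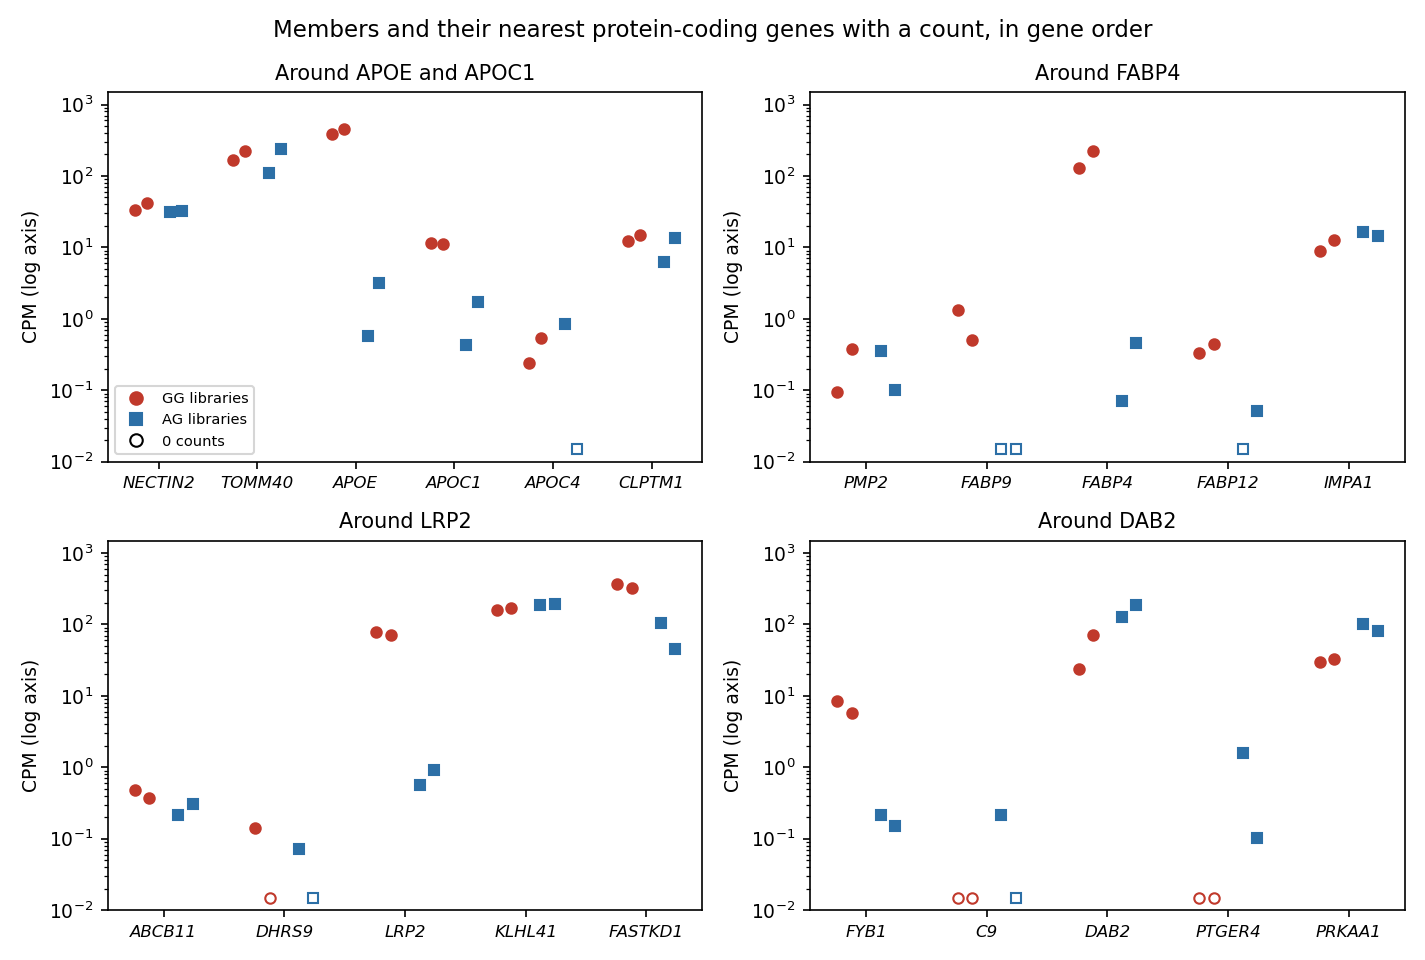
Levels in CPM on a log axis of APOE with APOC1, FABP4, LRP2 and DAB2 and of their nearest protein-coding genes with a count, placed in gene order without scale, with GG libraries (circles) left of AG libraries (squares) and open symbols for 0 counts. Near members that stood higher in GG, TOMM40, IMPA1 and KLHL41 were not called. FASTKD1, which lies beyond KLHL41 from LRP2, was called higher in GG. FABP9 next to FABP4 had 28 and 15 counts in GG, against 0 and 0 in AG.

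The genes whose 4 levels most resembled those of the picked members were found by the root mean square difference of log2 CPM, with 2 counts added on average and each gene centred on its own mean. They share the libraries and the contrast for which the members were picked, so this is a description. Closest to APOE were DECR1, an enzyme of unsaturated fatty acid oxidation, at a difference of 0.65, then VWA5A at 0.68 and the tight junction gene CLDN4 at 0.69. Closest to FABP4 were CLDN4 at 0.70, RRAGD at 0.76 and S100P at 0.86. Closest to LRP2 were ANXA6, a membrane-binding annexin, at 0.07, LCP1, an actin bundler, at 0.19 and GABRB2 at 0.32. The added counts set the AG level of genes with almost no reads there, among them RRAGD with 0 and 0 counts in AG, ANXA6 with 0 and 1 and GABRB2 with 1 and 1. The fitted log2 fold change of ANXA6 was 8.39, against 6.61 for LRP2.

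Nuclear receptors that control lipid-carrier genes in other tissues were listed with further transcription factors, 21 in all. Of these, 20 matched and 14 were tested; edgeR called 2 higher in GG, 0 lower in GG and 12 in neither direction (14.3% called, against 12.9% of all genes; 3 had an unadjusted p under 0.05), with a median log2 fold change of -0.07. DESeq2 called 2 higher and 1 lower. The called genes were estrogen-related receptors, ESRRG at 26.1 and 30.4 CPM in GG, against 0.784 and 0.254 CPM in AG (edgeR adjusted p = 0.0125; log2 fold change 5.80, and 6.76 without AG replicate 1 and 5.15 without AG replicate 2), and ESRRB at 48.2 and 34.4 CPM in GG, against 4.13 and 5.84 CPM in AG (edgeR adjusted p = 0.0176). PPARG, the receptor that activates FABP4 in fat cells, was named after its values were seen. It had 0.712 and 2.18 CPM in GG, against 0.214 and 1.22 CPM in AG, and was not called (edgeR adjusted p = 0.570).

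Markers of cell types that express these members were read beside them. In bulk RNA, fewer cells of a type and less RNA per cell cannot be told apart. Of 17 trophectoderm markers, 12 were tested; edgeR called 6 higher in GG, 0 lower in GG and 6 in neither direction (50% called, against 12.9% of all genes; 9 had an unadjusted p under 0.05). DESeq2 called 6 higher and 3 lower, no filter on low counts called 6 higher and 2 lower, and a minimum mean of 10 CPM 4 higher and 1 lower. The log2 fold change was above 0 in 7 of the 12 tested, with a median of 2.34. The summed level of the list was 545 and 966 CPM in GG, against 504 and 219.6 CPM in AG. CLDN4, S100P and ELF3, called higher in GG, stood at 51.2 to 246 CPM in GG and 0.102 to 8.79 CPM in AG, and GATA2, also called, had 79 and 92 counts in GG and 0 and 0 in AG. Others, chosen after their values were seen, had their lower values in GG. SLC7A2 had 9.78 and 6.96 CPM in GG, against 21.9 and 56.0 CPM in AG, and TFAP2C 48.1 and 61.7 CPM in GG, against 104 and 110.1 CPM in AG (edgeR adjusted p = 0.0539 and 0.0779). The part of trophectoderm-like cells in the members' differences was not tested.

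Visceral and primitive endoderm, which carries megalin and secretes apolipoproteins, was less clear. Of 16 markers, 14 matched and 8 were tested. LAMB1 and CTSE were called higher in GG and 6 were not called (25% called, against 12.9% of all genes). The log2 fold change was above 0 in 5 of the 8 tested, with a median of 0.23. CTSE, with 43 and 27 counts in GG and 0 and 0 in AG, also lost its call without AG replicate 1, without AG replicate 2 and with the replicate number as a block. The summed level was 200.3 and 193.7 CPM in GG, against 139.8 and 203 CPM in AG, where the groups overlapped. Of genes chosen after their values were seen, CER1 had 0 counts in all 4 libraries, RBP4 had a single count, in AG, and FOXA2 had 7 and 6 counts in GG and 3 and 6 in AG. These genes lay near the detection limit, and almost all of the summed level came from other markers on the list. The part of such cells in the members' differences was not tested.

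Macrophages express APOE and FABP4, and fat and endothelial cells express FABP4. Of 10 macrophage and blood markers, 8 matched and 6 were tested. By edgeR, 0 were called higher in GG and PTPRC was called lower in GG (16.7% called, against 12.9% of all genes). At an unadjusted p under 0.05 there were 3, while DESeq2, the replicate block, thinning and no filter each called 1 higher. The log2 fold change was above 0 in 2 of the 6 tested, with a median of -1.01. Their summed level was 18.8 and 20.8 CPM in GG, against 160.1 and 73.8 CPM in AG, and without PTPRC it was 12.3 and 17.4 CPM in GG, against 19.2 and 7.97 CPM in AG, where the groups overlapped. LYZ, CSF1R, CD68, CD163 and TYROBP were chosen after their values were seen. LYZ had 5.37 and 9.82 CPM in GG, against 0.427 and 1.27 CPM in AG (edgeR adjusted p = 0.0533). CSF1R had 2.94 and 0.784 CPM in GG, against 0.427 and 0.102 CPM in AG (edgeR adjusted p = 0.152), and CD68 had 0 and 16 counts in GG and 0 and 0 in AG. CD163 and TYROBP lay lower in GG. CD163 had 1.04 and 1.88 CPM in GG, against 2.99 and 5.38 CPM in AG (edgeR adjusted p = 0.190). TYROBP had 0 and 0.102 CPM in GG, against 2.21 and 0.152 CPM in AG, and was too low to test. The part of macrophages in the members' differences was not tested. Of 10 adipocyte and endothelial markers, 6 were tested and edgeR called 0 (against 12.9% of all genes). At an unadjusted p under 0.05 there were 3, and DESeq2 called 1, higher in GG. The log2 fold change was above 0 in 5 of the 6 tested, with a median of 1.38. Their summed level was 29.2 and 49.1 CPM in GG, against 16.7 and 18.3 CPM in AG, led by CIDEC and VWF. ADIPOQ, which defines fat cells and was chosen after its values were seen, had 0 counts in all 4 libraries. LEP and CDH5, also chosen after their values were seen, lay higher in GG. LEP had 65 and 214 counts in GG, against 0 and 11 in AG (edgeR adjusted p = 0.0951). CDH5 had 2.42 and 3.24 CPM in GG, against 0.214 and 0.660 CPM in AG (edgeR adjusted p = 0.0901). The part of fat or endothelial cells in the members' differences was not tested. Of 11 cumulus and granulosa markers, 7 matched and 1, TNFAIP6, was tested and not called by edgeR or DESeq2, and the list summed to 2.18 and 10.9 CPM in GG and 3.56 and 0.559 CPM in AG.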

How the data were processed

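Estimated counts per Ensembl gene and library were used as deposited; the authors did not scale them to library size. Trim Galore, STAR 2.6.0c, Salmon 0.12.0 and build rheMac8 are named, without roles, per the submitters' processing notes; cDNA was amplified with a SMARTer kit, per the labels' protocols. The annotation release and strand setting are not stated. Without molecular identifiers, reads are not independent molecules, so intervals and floors cover counting error only.

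Counts were rounded and tested with edgeR 4.0.16 in R 4.3.3 (quasi-likelihood F test, filterByExpr with minimum count 10 and total 15, TMM, group alone, Benjamini-Hochberg over 13227 genes), after a test on simulated data. Symbols matched 14654 of 21314 genes (68.8%). Levels are CPM; log2 fold changes are GG minus AG, with an SE derived from the F statistic.

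Members and lists were chosen with earlier results of these data known. Named genes are all members, up to 4 called genes with the smallest p from each list (the 2 most abundant where none was called), the nearest 2 genes on each side, and the 3 closest in pattern to each picked member; others are marked. Alternatives covered normalization, filtering, DESeq2 1.42.0, the replicate number as a block, thinning, summed identifiers and leaving out each library.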

Additional observations from a re-analysis of the deposited data

How the results depend on the processing

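The number of genes called, 1709, was 3333 with DESeq2's test and 2609 with no filter on low counts, and lay between 84 and 3786 when a single library was left out. It was 119 without GG replicate 1, 84 without GG replicate 2, 2217 without AG replicate 1 and 3786 without AG replicate 2. With a GG library left out, the remaining one is assumed to vary as the AG pair does. Over the remaining alternatives (2 other normalizations, a minimum mean of 10 CPM, the replicate block, thinning and summed identifiers) the count lay between 1481 and 1822.

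Of the 5 measured members not picked for their change, 2 were called. That number was 0 with a minimum mean of 10 CPM, which leaves DAB2 alone of the 5 in the test, and between 0 and 2 when a single library was left out. It was 3 with DESeq2, without a filter and with the replicate block, DAB2 being added. None of the 8 measured members changed direction under an alternative that could be fitted, and the cause of the lost and gained calls was not tested.

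Replicate numbers are shared by the groups but are not stated to mark a common batch, and same-numbered libraries deviated from their group means with a correlation of 0.0986 over genes. The replicate block gave 1697 genes called. It ended the calls of AP2B1, AP2S1 and CTSE among the called list genes, and added DAB2 among the members. The other normalizations moved the median log2 fold change of all genes by -0.0200 and 0.0124. The shares of fatty acid-binding family counts were the same with summed identifiers, since each gene had a single row. In AG, APOA1 rested on 0 and 1 counts, FABP4 on 1 and 9 and LRP2 on 8 and 18, and APOB had 14 to 28 counts in every library, which limits how precisely those levels are known.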

Other observations

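Genes that activate and store fatty acids moved in both directions between GG and AG morulae. Of 27 listed, 25 matched and 18 were tested. By edgeR, 1 was called higher in GG, 2 were called lower in GG and 15 were not called (16.7% called, against 12.9% of all genes tested). The median log2 fold change was 0.41. At an unadjusted p under 0.05 there were 7, and DESeq2 called 3 higher and 3 lower. The acyl-CoA synthetases, which trap fatty acids in the cell as CoA esters, differed from one another. ACSL3, the form found on lipid droplets, had 197 and 138 CPM in GG, against 65.04 and 52.2 CPM in AG (edgeR adjusted p = 0.0371). ACSL1 had 2.14 and 1.23 CPM in GG, against 10.2 and 10.7 CPM in AG (edgeR adjusted p = 0.0386). ACSL4 and ACSL5, named after their values were seen, lay higher in GG but were not called. ACSL4 had 184 and 164 CPM in GG, against 56.9 and 14.4 CPM in AG (edgeR adjusted p = 0.0721). ACSL5 had 1.04 and 1.06 CPM in GG, against 0.0712 and 0.254 CPM in AG (edgeR adjusted p = 0.124). In ACSL6 the groups overlapped. The droplet coat gene PLIN3 had 20.2 and 27.0 CPM in GG, against 70.9 and 96.3 CPM in AG (edgeR adjusted p = 0.0310). These 3 calls ended without GG replicate 1 and without GG replicate 2.

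Among genes of lipoprotein assembly, remodelling and sterol efflux, 20 of 23 matched and 15 were tested. By edgeR, NPC2 was called higher in GG, 0 were called lower in GG and 14 were not called (6.67% called, against 12.9% of all genes). The median log2 fold change was 0.23. At an unadjusted p under 0.05 there were 3, and DESeq2 called 2 higher and 1 lower. NPC2, the lysosomal protein that hands on cholesterol taken up with lipoproteins, had 1353 and 1693 CPM in GG, against 336 and 546 CPM in AG (log2 fold change 1.79 ± 0.31 SE, edgeR adjusted p = 0.0277). It lost its call without GG replicate 1 and without GG replicate 2.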
